A study of Mus musculus with 6 samples.

Results

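The 10 transcripts described here, Peak1, Cdk8, Il31ra, Gphn, Gm48099, Lars2, Cmss1, Camk1d, Gm42418 and Gm26917, are those that were earlier seen, in these same libraries, to lead a cluster of shallow cells and to take a larger share of the molecules of barcodes with few molecules. They were found by symbol, 1 row each, among the 32285 genes of the count tables. They were thus chosen by their UMI shares in shallow barcodes and by their lead of that cluster, and their shares by depth, by cell class and by mitochondrial share are given as a description with no test. Differences between the genotypes in these libraries were also known when the members were chosen, so the tests of genotype are no independent evidence of a direction, and counts of members called are a description.

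Epithelial cells of mouse ileal crypts were sorted by EpCAM and profiled by single-cell RNA sequencing in droplets, in 6 libraries, 3 per genotype. Fpr2f/f mice carry floxed alleles of Fpr2, a receptor for formyl peptides, without Cre, and are labelled WT. Fpr2VKO mice carry the same floxed alleles and a Cre driven by the Villin promoter, which removes Fpr2 in the intestinal epithelium and leaves it in other cells. Both groups are on the C57BL/6J background, untreated and matched for sex and age. Fpr2 itself had 0 UMIs in every library, also over all barcodes, so the targeted gene could not check the labels.

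The libraries held 90142126 to 189516114 unique molecular identifiers (UMIs), each standing for 1 captured RNA molecule, and 9736 to 13764 barcodes per library passed the limits on UMIs and genes. The limit of 20% on the mitochondrial share left 1795 to 4722 of them per library (kept cells). The lower limit on UMIs, set per library, was 2043 in Fpr2VKO replicate 1, 1520 in Fpr2VKO replicate 3 and 1000 elsewhere, so that shallower cells could be kept in the other 4 libraries. Kept cells had a median total of 3033 to 4612 UMIs in the Fpr2f/f libraries and of 6728.5 to 7335 in the Fpr2VKO libraries. In kept cells 5 epithelial markers summed to 3319 to 3771 CPM (counts per gene scaled to the same total of UMIs in every sum), the sorting target Epcam to 1174 to 1358, 8 immune markers to 104 to 517, 6 stromal markers to 23.9 to 84.6 and 4 haemoglobin genes to 0.0191 to 0.942. Any pair of libraries shared 0 to 23 barcodes of kept cells, where random draws from the barcode list would give 1.63 to 5.68. Pairs among Fpr2f/f replicates 1 and 2 and Fpr2VKO replicates 1 and 2 shared 8 to 23, each more than its random value. Replicates 3 of both genotypes shared 9 with each other, also more, and 0 to 4 with those libraries, close to or below random. Each of these sets of libraries held both genotypes, and whether the sets were handled or sequenced as batches was not tested.

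In droplet sequencing a barcode stands for a droplet, and its UMI total depends on whether the droplet held an intact cell, a damaged cell or only RNA that was free in the suspension. Shares of UMIs can therefore be followed from barcodes of a few UMIs to deeply sequenced cells. Of the 10 genes, 7 encode proteins. Peak1 is an atypical kinase of the cytoskeleton and cell migration, Cdk8 the kinase of the Mediator complex, Camk1d a calcium- and calmodulin-dependent kinase, and Il31ra a receptor subunit for the cytokine IL-31. Gphn encodes gephyrin, the scaffold of inhibitory synapses that also makes the molybdenum cofactor, Lars2 the mitochondrial leucyl-tRNA synthetase, and Cmss1 a little-studied protein. Gm48099, Gm42418 and Gm26917 are annotated as long intergenic non-coding RNAs (lincRNAs).

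In the GENCODE annotation of GRCm38, Gphn lies at chr12:78226379-78684772 on the plus strand and spans 458394 bases, of which 0.818% are exonic. Camk1d spans 421059 bases at chr2:5293457-5714515 (minus), Cmss1 304865 at chr16:57302000-57606864 (minus) and Peak1 216942 at chr9:56201126-56418067 (minus). Lars2 lies at chr9:123366927-123462666 (plus), Il31ra at chr13:112519898-112594360 (minus), Cdk8 at chr5:146231230-146302874 (plus) and Gm48099 at chr14:19271274-19282822 (plus). The exonic share of the protein-coding members was 0.655% (Cmss1) to 13.7% (Cdk8). The members spanned a median of 85101.5 bases and 70% of them more than 50 kb, against a median of 28960 bases and 34.2% for the 5411 genes with a mean of at least 20 CPM. Whether the members' UMIs came from exons or introns could not be read from the count tables.

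Gm26917 (chr17:39843013-39846341, plus) and Gm42418 (chr17:39846958-39848788, plus) lie side by side on chromosome 17, 616 bases apart, and each is a single exon. An annotated ribosomal RNA gene, CT010467.1, runs on the opposite strand at chr17:39846353-39848827, across Gm42418, and is not a row of the count tables. The first 1244 of the 1831 bases of Gm42418, or 67.9%, are the exact reverse complement of that ribosomal RNA transcript as annotated. Which strand the ribosomal RNA itself is read from was not tested, so Gm42418 is not said here to be antisense to it. Inside Gm42418 and on the opposite strand lies a second lincRNA, AY036118 (chr17:39847113-39848035, minus), 923 bases long. The stretch of Gm42418 where the match ends is shown, since it places this member in ribosomal RNA sequence. It is read 5′ to 3′ on the plus strand at chr17:39848152-39848231 from the GENCODE transcript of Gm42418. The bases that match the ribosomal RNA transcript, as its reverse complement, are in capitals:

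Gm42418: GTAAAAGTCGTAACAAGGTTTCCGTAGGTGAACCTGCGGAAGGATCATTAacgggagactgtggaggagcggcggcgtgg

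The capitals end at base 39848201. The lower-case bases after it lie within the annotated span of CT010467.1 but did not match its transcript, which holds 1849 bases. Where Gm42418 and AY036118 overlap, their reads can be told apart only by strand, and whether the counting used strand is not given in the sources used here. The same holds for the stretch that Cmss1 shares with Filip1l (chr16:57353093-57573126, plus), which lies within Cmss1 on the opposite strand. AY036118 and Filip1l were the only genes overlapping a member with a mean of at least 20 CPM, at 1538 and 131.

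The 10 transcripts together made up 4.87%, 6.72% and 5.49% of all UMIs in Fpr2f/f replicates 1, 2 and 3, and 4.14%, 3.40% and 3.33% in Fpr2VKO replicates 1, 2 and 3. Of these UMIs, 83.5% to 88.3% in each library fell to Peak1, Gm26917 and Gm42418. The share followed the depth of the barcode. In barcodes of 1000 to under 10000 UMIs it was 7.02%, 10.6% and 8.57% in Fpr2f/f and 6.65%, 5.74% and 5.34% in Fpr2VKO. In barcodes of 10000 UMIs or more it was 1.52%, 3.09% and 3.03%, and 2.24%, 1.48% and 2.07%. Every library had a lower share in its deepest barcodes than in the bin below.

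Below 1000 UMIs the share was intermediate. It was 6.64%, 7.63% and 6.24% in Fpr2f/f and 3.51%, 4.06% and 3.10% in Fpr2VKO in barcodes of 100 to under 1000 UMIs, none of which was a kept cell. Under 100 UMIs, where the median barcode held 2 or 3 UMIs, it was 5.07%, 6.53% and 4.56%, and 3.77%, 3.15% and 2.75%. The members thus had a sizeable share also where barcodes hold too few molecules for a cell.

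Peak1, the member with the most UMIs over all barcodes in every library, showed the pattern. Its level was 27657, 38994 and 30320 CPM in Fpr2f/f and 23808, 21804 and 18034 in Fpr2VKO at 1000 to under 10000 UMIs. At 10000 UMIs or more it was 5564, 11072 and 10473, and 8063, 5077 and 7211. The difference between these bins was 1.78 ± 0.38 on the log2 scale (SD, n = 6 libraries), or 3.42-fold, with 2.5- to 4.97-fold in single libraries.

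Gm26917 differed most between the bins of all 5411 genes, by 2.36 ± 0.47 on the log2 scale (5.14-fold, 3.92- to 8.85-fold in single libraries). Cmss1, Peak1 and Gm48099 followed among the members, at ranks 9, 11 and 21, with 1.90 ± 0.31, 1.78 ± 0.38 and 1.68 ± 0.36. Il31ra (1.53 ± 0.24), Cdk8 (1.49 ± 0.22), Gphn (1.29 ± 0.15) and Camk1d (1.18 ± 0.28) came next, and Gm42418 (1.12 ± 0.17) and Lars2 (1.04 ± 0.13) had the lowest values. Neighbours in this order differed by less than the larger of their SDs between libraries, and Gm26917 from Cmss1 and Cdk8 from Gphn by more than the smaller one. All 10 were above the 95th percentile of the 5411 genes, 0.56, whose median was -0.26. The summed members differed by 1.73 ± 0.31, and by 2.02 ± 0.40 when the mitochondrially encoded genes were left out of the total.

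**Figure D1:**
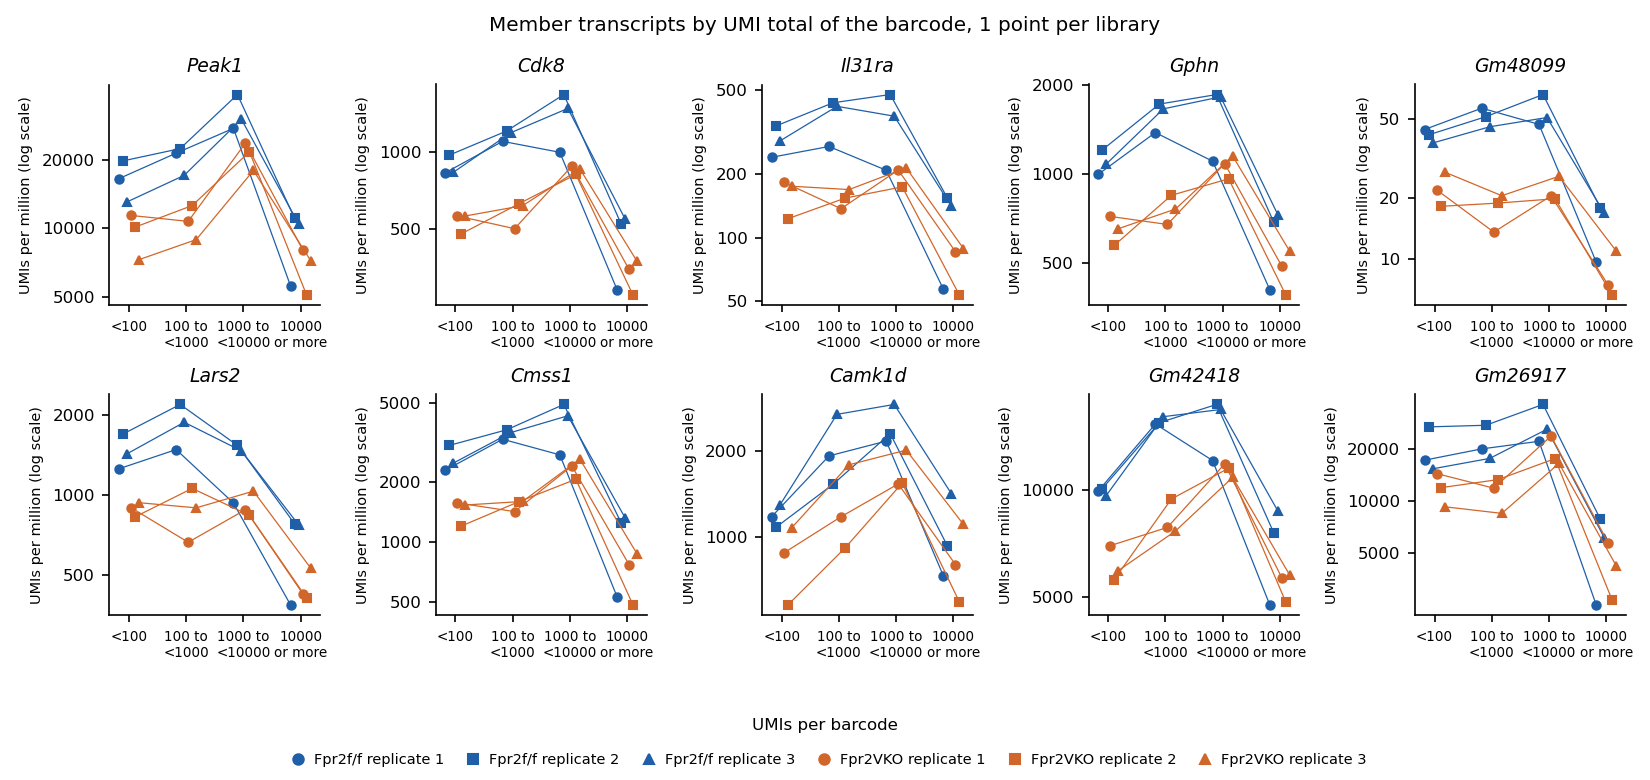
Level of each of the 10 transcripts in CPM (log axis) against the UMI total of the barcode in 4 bins, with 1 point and line per library (blue, Fpr2f/f; orange, Fpr2VKO). In every library each transcript was lower at 10000 UMIs or more than at 1000 to under 10000 UMIs, and the blue points of Gm48099 lay above the orange ones in the 3 shallower bins.

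The bin under 100 UMIs separated members that the deeper bins did not. Over the bin of 10000 UMIs or more it held 1.75 ± 0.63 more Gm26917 on the log2 scale, 1.49 ± 0.38 more Gm48099, 1.25 ± 0.41 more Il31ra, 1.25 ± 0.47 more Cmss1 and 1.10 ± 0.31 more Lars2. Cdk8 (0.85 ± 0.35), Peak1 (0.71 ± 0.55) and Gphn (0.67 ± 0.35) came next. Gm42418 differed by 0.36 ± 0.37 and Camk1d, the least enriched there, by 0.14 ± 0.30 (SD, n = 6), so that their spread between libraries was as large as or larger than the difference. For Lars2 the value in the shallowest bin was as high as in the bin of 1000 to under 10000 UMIs (1.04).

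On a finer scale of depth the summed share was highest in barcodes with a median of 2338 to 4153 UMIs, at 6.47% to 12% depending on the library. It fell to 0.891% to 1.55% in the deepest barcodes, with a median of 38916 to 48061.5 UMIs, a fold of 5.79 to 10.5. Below 1000 UMIs its lowest value was 2.18% to 6.04%, and in barcodes of under 10 UMIs it was again 4.55% to 8.52%. All 6 libraries had this shape. Among kept cells alone, those of 1000 to under 10000 UMIs gave 7.60% to 15.7% of their UMIs to the members, and those of 10000 or more 0.981% to 2.04%.

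**Figure D2:**
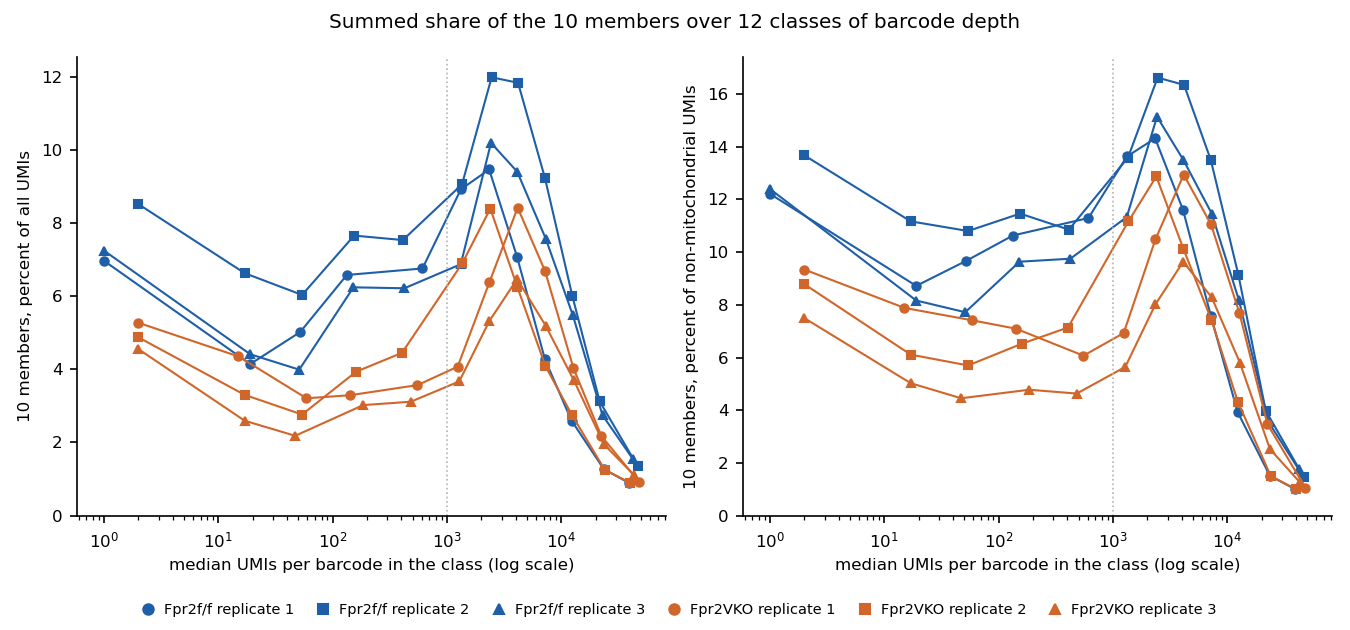
Share of UMIs in the 10 transcripts together against the median UMI total of the barcodes in finer depth classes (log axis), as percent of all UMIs (left) and of UMIs outside mitochondrially encoded genes (right), 1 line per library. The dotted line marks 1000 UMIs. Each line peaks at a median of 2338 to 4153 UMIs (6.47% to 12% of all UMIs) and is lowest in the deepest class (0.891% to 1.55%).

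Barcodes of like depth differed widely. At 2000 to under 5000 UMIs, the 4089 to 7393 barcodes per library had a median members' share of 3.97% to 10.3%, a 5th percentile of 1.22% to 2.69% and a 95th percentile of 16.9% to 28.3%. The members took more than 20% of the UMIs of 2.49% to 15.1% of these barcodes. The lowest of these shares of barcodes was that of Fpr2VKO replicate 3 and the highest that of Fpr2f/f replicate 2.

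Within this depth range the members rose and fell together from barcode to barcode. Over the 45 pairs of members and the 6 libraries, the correlation of their log-transformed shares was 0.0854 to 0.693, with a median of 0.384. The highest medians over libraries were those of Peak1 with Gm26917 (0.67), Peak1 with Gm42418 (0.66) and Peak1 with Cmss1 (0.64). Pairs with Gm48099, which had the fewest UMIs, were lowest, down to 0.15 with Il31ra, as was Camk1d with Gm26917 (0.17). The members were chosen for leading the same cluster of shallow cells in these libraries, and no other pairs of genes were compared. The barcodes also share a library and the shares a total, so these values are a description.

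**Figure D3:**
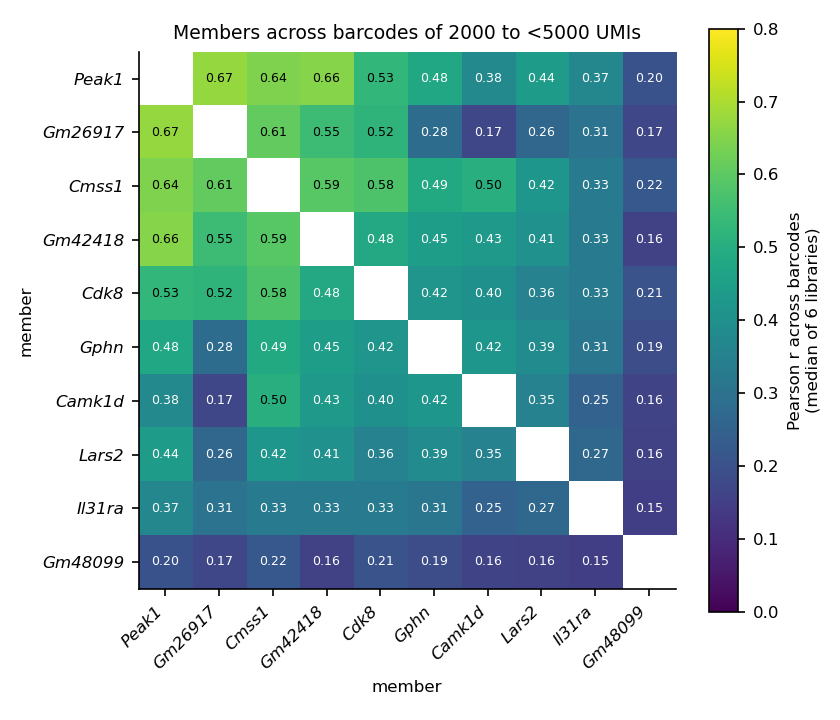
Median over the 6 libraries of the correlation of the log-transformed shares of each pair of members across barcodes of 2000 to under 5000 UMIs. The pairs of Peak1 with Gm26917, Gm42418 and Cmss1 have the highest values (up to 0.67) and Gm48099 has the lowest row (down to 0.15).

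The genes whose level followed that of the summed members most closely over the 24 sums of 6 libraries and 4 depth bins were Hist1h3e (r = 0.970), Hip1r (0.966), Atg2a (0.966), Cdc42bpb (0.963) and Tex14 (0.961), of 5401 genes compared. Hist1h3e, a replication-dependent histone, and Tex14, known from intercellular bridges of germ cells, were also higher at 1000 to under 10000 than at 10000 UMIs or more, by 2.09 and 1.98 on the log2 scale. For Atg2a, a lipid transfer protein of autophagy, Cdc42bpb, a kinase of the cytoskeleton, and Hip1r, which links clathrin to actin, this difference was 1.06, 0.75 and 0.66. The members themselves had r of 0.769 (Camk1d) to 0.981 (Peak1) with their own sum. The 24 sums share libraries and cells, so these correlations are a description.

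Lists of genes that share a feature with some members had medians below the lowest member, Lars2 (1.04). All 13 mitochondrially encoded genes were higher at 1000 to under 10000 than at 10000 UMIs or more, with a median of 0.78 on the log2 scale and a highest value of 1.28, above Camk1d, Gm42418 and Lars2. Of the nuclear long non-coding RNAs, 4 of 8 reached 20 CPM and 2 of these were higher, Malat1 of nuclear speckles by 0.72 and Neat1 of paraspeckles by 0.72, while Tug1 had -0.50. Of 84 cytosolic ribosomal protein genes, 81 reached that level and 11 were higher, with a median of -0.45 and examples at 0.29 (Rpl13) and -0.23 (Rps12). AY036118, Zc3h7a, Jarid2 and Filip1l, which are transcripts said to gain UMIs in mouse droplet libraries with ribosomal RNA sequence, were each higher, by 0.53, 0.52, 0.13 and 0.59. The median of all 5411 genes was -0.26.

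Kept cells were put into classes when their UMIs for a lineage's markers exceeded those of the barcodes under 100 UMIs at least 3-fold, and 297 to 875 cells per library lay near that limit. Cells with no lineage marker above the limit made up 37.5% to 53.1% of kept cells. Over all kept cells of a class, the members took 9.54%, 10.8% and 9.79% of the UMIs of tuft-marker cells from Fpr2f/f mice and 6.27%, 7.31% and 5.48% of those from Fpr2VKO mice. In cells with no marker they took 4.97%, 11.9% and 6.38%, and 6.06%, 4.05% and 3.99%. Paneth-marker cells had the lowest epithelial values, at 1.46%, 1.58% and 1.63%, and 0.896%, 0.783% and 0.90%.

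The classes differed in depth as well, since the median UMI total was 1886 to 4309 in tuft-marker cells, 2473.5 to 5088 in cells with no marker and 6499 to 30983 in stem-marker cells. In cells of 2000 to under 10000 UMIs alone, the members' share was 9.62% to 19.7% in tuft-marker cells, 10.7% to 19.3% in cells with no marker, 7.63% to 15.5% in cells with markers of transit-amplifying (TA) cells and 3.71% to 15.9% in stem-marker cells. These ranges overlapped. Goblet (3.15% to 4.95%), enteroendocrine (2.38% to 6.74%) and Paneth (1.72% to 5.38%) cells lay wholly below tuft-marker, no-marker and TA cells. Enterocytes (3.53% to 9.37%) lay below tuft-marker and no-marker cells. Their range overlapped that of TA cells, though within each library they were lower. The ranges of all 4 of these classes overlapped that of stem-marker cells. Within each library goblet, enteroendocrine and Paneth cells were lower than stem-marker cells, as were enterocytes in all libraries but Fpr2VKO replicate 2.

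Immune-marker cells, with T cell, B cell or macrophage transcripts, had a share of 0.676% to 3.42% in the 20 to 62 cells per library of 2000 to under 10000 UMIs, the lowest of the classes in 5 of 6 libraries. The highest was that of Fpr2f/f replicate 3, where enteroendocrine cells were lower (2.69%), and the other 5 libraries had 0.676% to 1.36%. The range in epithelial classes at this depth thus started above the immune value of most libraries. Over all kept cells, the cells with no marker exceeded stem-marker cells by 1.57 on the log2 scale, and by 0.67 at 2000 to under 10000 UMIs.

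**Figure D4:**
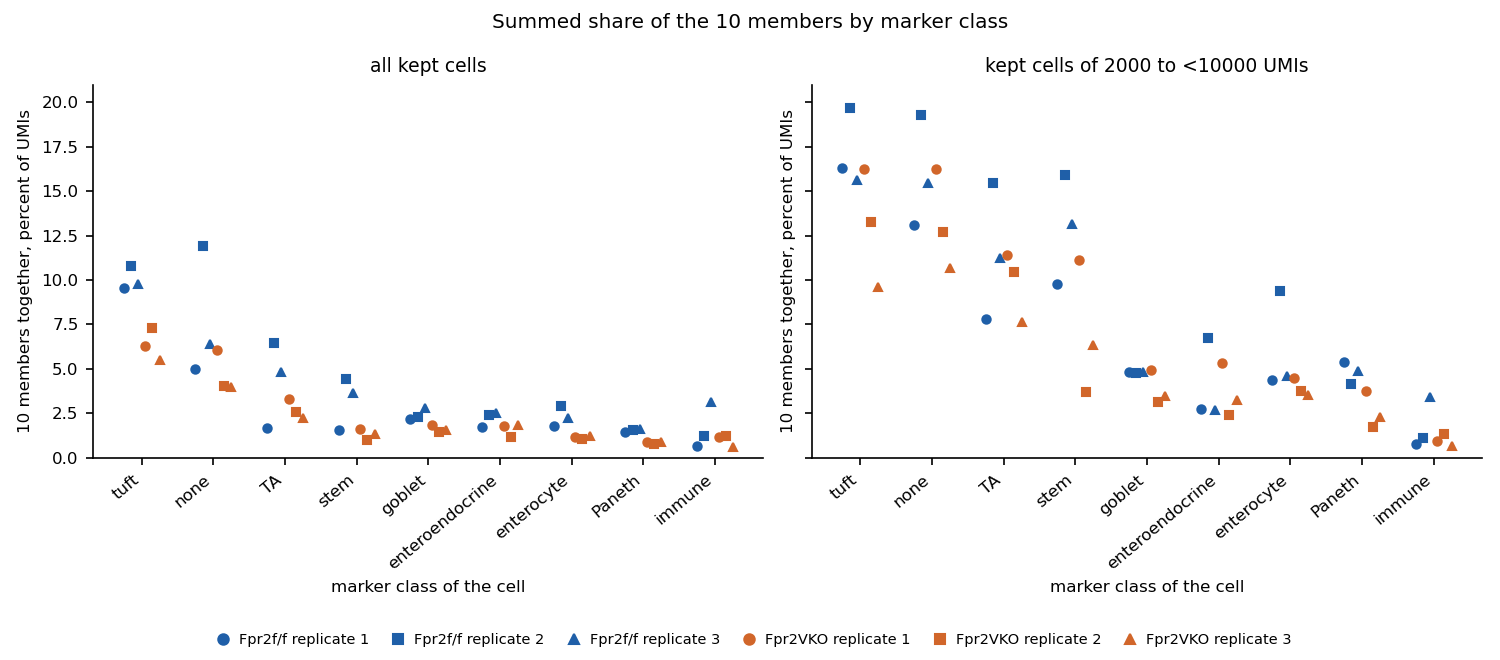
Share of UMIs in the 10 transcripts together, in percent, by marker class of the kept cells, over all depths (left) and for cells of 2000 to under 10000 UMIs (right), 1 point per library. Tuft-marker and no-marker cells are highest in both panels (5.48% to 10.8% and 3.99% to 11.9% left, 9.62% to 19.7% and 10.7% to 19.3% right), and TA and stem-marker cells move up towards them in the right panel.

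Peak1 alone had a like order of classes at 2000 to under 10000 UMIs. It was at 91883, 95803 and 71559.8 CPM in tuft-marker cells of Fpr2f/f and 83139, 64487 and 46008 in those of Fpr2VKO. In cells with no marker it was at 49913, 71937 and 54486, and 58884, 47006 and 36766. In goblet-marker cells it was at 22529, 18803 and 18928, and 19520, 10961 and 14313, below every value of both other classes.

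Gphn was at 3848, 4057 and 4353 CPM in the tuft-marker cells of Fpr2f/f and 2334, 2332 and 2088 in those of Fpr2VKO at this depth. Its values in cells with no marker, 1757, 3683 and 3533, and 2583, 2399 and 2503, overlapped these. Tuft-marker cells were few, 17 to 57 per library at this depth. Those of all depths, 38 to 79 per library, held 0.281% to 0.688% of all Gphn UMIs and 0.0885% to 0.737% of all Gm48099 UMIs of a library.

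The mitochondrial share of a barcode, which rises in damaged cells, did not run parallel to the members' share. At 1000 to under 10000 UMIs the members took 4.74% to 17% of the UMIs of barcodes with less than 10% mitochondrial UMIs, and 7.94% to 15.0% at 10 to 20%. At 20 to 40% they took 5.46% to 9.72% and above 40% 3.69% to 5.84%. Taken of the non-mitochondrial UMIs alone, the share was 5.10% to 18.3% under 10% and 9.43% to 17.7% at 10 to 20%. It was 7.91% to 13.8% at 20 to 40% and 8.37% to 12.4% above 40%. These ranges overlapped, but within each library this share was lower above 40% than at 10 to 20%. Under 10% it was lower still than above 40% in all libraries but Fpr2f/f replicate 2.

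To ask whether the 10 transcripts differed between genotypes, UMIs were summed per library and tested across all genes with the quasi-likelihood test of edgeR, with Benjamini-Hochberg adjusted p-values over all genes tested and a threshold of 0.05. A negative log2 change means lower in Fpr2VKO. The study had picked out Peak1, Il31ra, Cdk8 and Lars2 on these same libraries, and Gphn and Gm48099 had been seen to be lower in tuft-marker cells of Fpr2VKO, so the direction of these members below is no independent evidence. In bulk sums, fewer cells that hold a transcript and fewer molecules per cell cannot be told apart.

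Over all barcodes, Gm48099 was the member that passed. It was at 35.3, 42.2 and 34.8 CPM in Fpr2f/f and 14.4, 14 and 19.1 in Fpr2VKO. The groups did not overlap, and the log2 change was -1.16 (SE 0.13, adjusted p = 0.000204, n = 3 per group by edgeR). Of 23155 genes tested 0.0777% passed in either direction, against 1 of the 10 members, which had been chosen with its tuft contrast in these libraries known.

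The other 9 members had log2 changes of -0.43 (Camk1d) to -0.82 (Il31ra), with adjusted p of 0.125 to 0.535. Peak1 was at 17986, 23511 and 18181 CPM in Fpr2f/f and 14237, 12029 and 10779 in Fpr2VKO, and Gphn at 891, 1298 and 1265, and 751, 663 and 783. In all members but Camk1d every Fpr2VKO library was below every Fpr2f/f library, 9 of 10, as were 12.5% of the genes tested. All 10 had an unadjusted p under 0.05, as did 7.71% of genes. The members' median log2 change was -0.59, and that of all genes -0.01.

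**Figure D5:**
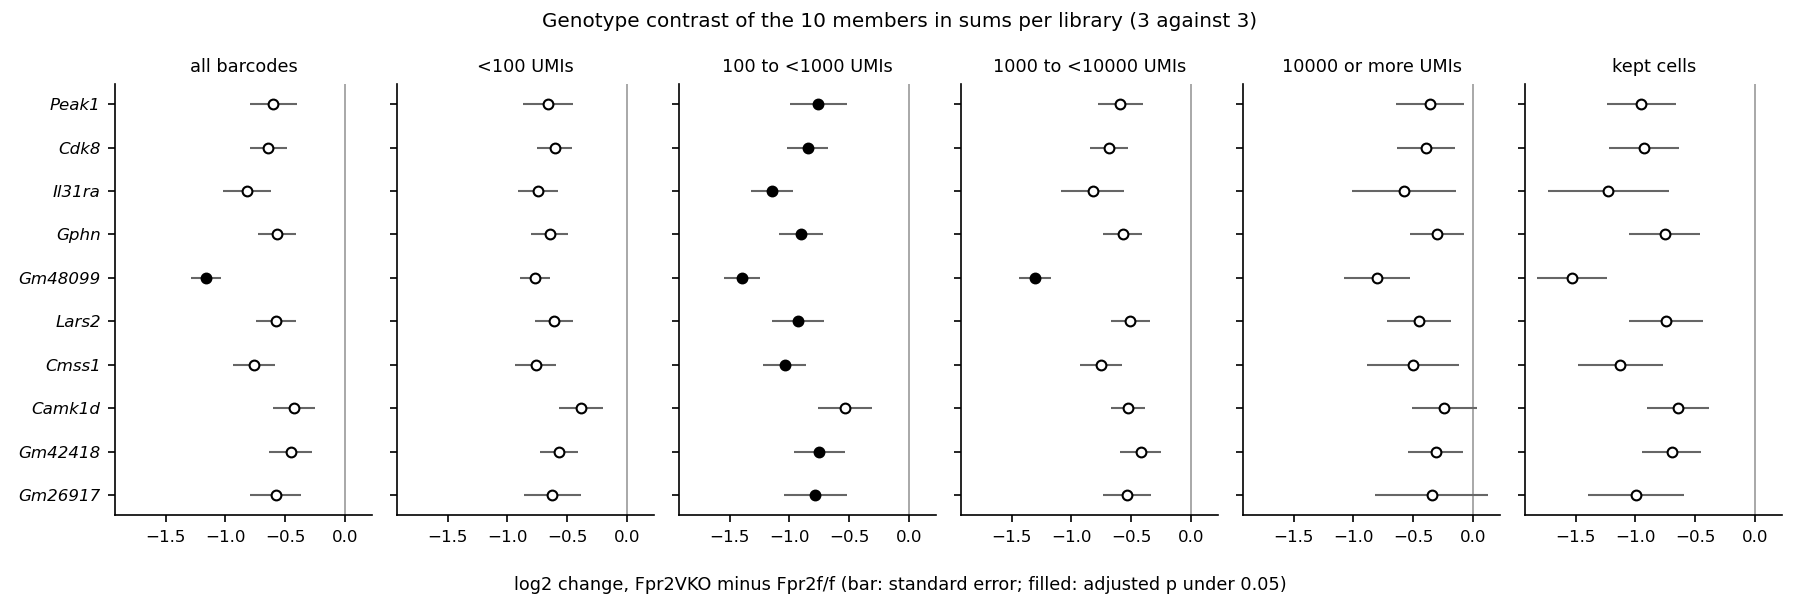
Log2 change of each of the 10 transcripts in Fpr2VKO against Fpr2f/f, with its standard error, for sums over all barcodes, the 4 depth bins and kept cells, from edgeR fits to 3 libraries per genotype (filled points, adjusted p under 0.05). All points lie below 0, and 9 of 10 are filled in barcodes of 100 to under 1000 UMIs.

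Of the depth bins, that of 100 to under 1000 UMIs held most of the calls. There 9 of 10 members were called lower in Fpr2VKO, all but Camk1d, where 20.1% of the 19854 genes tested were called in either direction and 13% were called lower. Of these 9, Peak1, Il31ra, Cdk8, Lars2, Gphn and Gm48099 had been picked with a genotype difference in view, so that nothing is read from the count. The same 9 members had every Fpr2VKO library below every Fpr2f/f library, as did 31.3% of all genes. This bin thus differed between the groups over a large part of the transcriptome. Its median UMI total was 140 to 163 in Fpr2f/f and 170 to 369 in Fpr2VKO and its mitochondrial share 32.6% to 38.8% and 33.5% to 43.8%, and the part of depth in these calls was not tested.

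Gm48099 fell most in this bin. It was at 56.7, 51.4 and 45.8 CPM in Fpr2f/f and 13.6, 19.0 and 20.7 in Fpr2VKO, a log2 change of -1.40 (SE 0.15, adjusted p = 0.00108). Il31ra was at 271, 436 and 419, and 137, 154 and 169, a log2 change of -1.14 (SE 0.18, adjusted p = 0.00289). In neither did the groups overlap, although Fpr2f/f replicate 1 was well below the other Fpr2f/f libraries in Il31ra.

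Cmss1 was at 3296, 3676 and 3558 CPM in Fpr2f/f and 1422, 1594 and 1600 in Fpr2VKO (log2 change -1.04, SE 0.18, adjusted p = 0.0046). Gphn was at 1381, 1724 and 1661, and 676, 848 and 762 (-0.90, SE 0.18, adjusted p = 0.0078), and Cdk8 at 1101, 1208 and 1188, and 503, 628 and 618 (-0.85, SE 0.17, adjusted p = 0.00744). For each of these 3 transcripts the highest Fpr2VKO library was far below the lowest Fpr2f/f library.

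Lars2 had a log2 change of -0.93 (SE 0.22, adjusted p = 0.0142), Gm42418 of -0.75 (SE 0.21, adjusted p = 0.0279), Peak1 of -0.76 (SE 0.24, adjusted p = 0.0403) and Gm26917 of -0.78 (SE 0.26, adjusted p = 0.0495). Peak1 was at 21496, 22509 and 17155 CPM in Fpr2f/f and 10747, 12622 and 8930 in Fpr2VKO. Camk1d, at 1918, 1527 and 2679, and 1176, 915 and 1786, overlapped between the groups (-0.53, SE 0.22, adjusted p = 0.0964).

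Cdk8, Il31ra, Gphn, Gm48099 and Cmss1 kept an adjusted p under 0.05 when any 1 library was left out. Without Fpr2f/f replicate 2 or without Fpr2VKO replicate 1 these were the 5 members called. Lars2 was called too, making 6, without Fpr2f/f replicate 1, Fpr2f/f replicate 3 or Fpr2VKO replicate 3, and all 9 were called without Fpr2VKO replicate 2. Over these 6 fits 848 to 4620 genes were called. A split of this bin was made after seeing the data. In barcodes of 200 to under 1000 UMIs alone the same 5 members were called among 223 of 17157 genes. In those of 100 to under 200 UMIs 9 members, all but Gm26917, were called among 3744 of 15643.

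Other transcripts of the ribosomal RNA neighbourhood and of the lists moved in this bin too. AY036118, the lincRNA antisense to Gm42418 and, besides Gm26917, the one other gene within 50 kb of it in the tables, fell by 1.00 on the log2 scale (SE 0.22, adjusted p = 0.0115). With Zc3h7a (-0.997, SE 0.28, adjusted p = 0.0334), Filip1l (-0.80, SE 0.17, adjusted p = 0.00889) and Jarid2 (-0.57, SE 0.13, adjusted p = 0.0141), each transcript named above for such gains was called lower by edgeR, and all but Zc3h7a also with DESeq2. The part of ribosomal RNA sequence in the libraries was not tested.

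Of the nuclear long non-coding RNAs, 1 of 8 was called lower, Pvt1, named after its value was seen (-0.60, SE 0.13, adjusted p = 0.0119), and none higher, with Malat1 at 0.51 (SE 0.24, adjusted p = 0.124). None of the 13 mitochondrially encoded genes was called, with a median of 0.35, and none of 82 ribosomal protein genes, with a median of 0.15. With DESeq2, run without the filter on low counts, 1 non-coding RNA, 5 mitochondrial and 17 ribosomal protein genes were called higher. With library totals in place of TMM the ribosomal protein median was -0.01. The members' median log2 change was -0.88 in the main fit, -0.78 with DESeq2 and -1.03 with library totals, against -0.04, -0.09 and -0.18 for all genes.

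In barcodes under 100 UMIs no member passed in the main edgeR fit, where 0.0197% of 15226 genes did. The log2 changes were -0.38 to -0.77, with adjusted p of 0.0591 (Gm48099) to 0.356 (Camk1d). At an unadjusted p under 0.05, 9 of 10 members passed there, as did 14.5% of genes, and with DESeq2 7 members were called among 141 of 28432 genes. With no filter on low counts edgeR called 5 members among 478 of 28432 genes, and with the replicate number as a block 9 among 714 of 15226. Gm48099 was at 44.3, 41.7 and 37.9 CPM in Fpr2f/f and 22.1, 18.3 and 27.1 in Fpr2VKO, without overlap. In this bin 10 of 10 members had every Fpr2VKO library below every Fpr2f/f library, as did 16.4% of genes.

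In barcodes of 1000 to under 10000 UMIs, Gm48099 was called again, where 0.0159% of 18877 genes passed. It was at 47.0, 66.4 and 50.9 CPM in Fpr2f/f and 20.6, 19.9 and 25.8 in Fpr2VKO (log2 change -1.31, SE 0.13, adjusted p = 0.000242). The other members had log2 changes of -0.42 to -0.82 and adjusted p of 0.223 to 0.561. Without Fpr2f/f replicate 1, 5 members were called among 24 of 19625 genes. Gm48099 kept its call there and over all barcodes in 11 of 11 alternatives each, with adjusted p up to 0.0128 and up to 0.0404.

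In barcodes of 10000 UMIs or more no member passed, with 0.0115% of 17457 genes called and log2 changes of -0.24 (Camk1d) to -0.80 (Gm48099). No member was called there with DESeq2 either, and 1 had an unadjusted p under 0.05, as did 3.63% of genes. Peak1 was at 5564, 11072 and 10473 CPM in Fpr2f/f and 8063, 5077 and 7211 in Fpr2VKO, so that Fpr2f/f replicate 1 lay among the Fpr2VKO libraries. This library was also the lowest of its group in the other 9 members.

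Whether the genotype difference itself depended on depth was tested as an interaction between the bins of 100 to under 1000 and of 10000 UMIs or more. The members' changes were lower in the shallower bin by 0.31 to 0.66 on the log2 scale, with adjusted p of 0.118 to 0.617, and none passed, where 1.6% of 21848 genes did. At an unadjusted p under 0.05, 2 of 10 members passed, below the share of all genes, 25.95%. With library totals in place of TMM 1 member, Gphn, was called among 477 of 21848 genes, and 2 were without Fpr2VKO replicate 2, among 4385 of 22433 genes.

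In kept cells no member passed in the main edgeR fit, and 0.0178% of 16882 genes did. The log2 changes were -0.64 (Camk1d) to -1.53 (Gm48099), with adjusted p of 0.323 to 0.605. Gm48099 was at 20.5, 39.6 and 25.3 CPM in Fpr2f/f and 8.80, 9.08 and 11.3 in Fpr2VKO. Peak1, Cdk8, Gm48099 and Cmss1, 4 of 10, had every Fpr2VKO library below every Fpr2f/f library, as did 9.95% of genes, and 9 of 10 had an unadjusted p under 0.05, as did 8.60% of genes.

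Fpr2f/f replicate 2 stood high in this sum. The members made up 2.94%, 6.10% and 4.26% of kept-cell UMIs in Fpr2f/f and 2.98%, 1.99% and 2.06% in Fpr2VKO, so that Fpr2f/f replicate 1 lay below Fpr2VKO replicate 1. With DESeq2 3 members were called among 98 of 28699 genes. Without Fpr2f/f replicate 1, the low one, 6 were (Cdk8, Lars2, Gphn, Il31ra, Cmss1 and Gm42418) among 42 of 17681 genes. Without Fpr2f/f replicate 2, the high one, none was, and the log2 changes of Peak1, Gphn and Il31ra were -0.58, -0.45 and -0.73 in place of -0.95, -0.75 and -1.23.

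The kept cells of Fpr2VKO were deeper, with 38.6% to 44.6% of them at 10000 UMIs or more against 21.1% to 28.9% in Fpr2f/f. In kept cells of 2000 to under 10000 UMIs alone, a choice made after seeing the data, the log2 changes were -0.38 (Gm42418) to -1.35 (Gm48099, SE 0.23, adjusted p = 0.37), and none passed. Peak1 there changed by -0.48 in place of -0.95. Gm48099, at 58.1, 101.9 and 67.5, and 29.1, 32.7 and 32.2 CPM, was the only member whose groups did not overlap at this depth. The share of all genes with every Fpr2VKO library lower was not counted at this depth, and was 9.95% over kept cells of all depths.

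Within marker classes, 10 member values passed, all of them given as a description, since most are of members picked with a genotype difference in view. In Paneth-marker cells, Peak1 was at 4011, 3484 and 3129 CPM in Fpr2f/f and 1965, 1523 and 1762 in Fpr2VKO (log2 change -0.95, SE 0.18, adjusted p = 0.00767). Gm26917 was at 5023, 5675 and 4865, and 2991, 2643 and 2540 (-0.88, SE 0.21, adjusted p = 0.0359). These were 2 of 10 members, with 0.373% of 9124 genes called, and in both the groups lay apart.

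Paneth-marker cells also differed in depth, with a median of 4563.5 to 12605 UMIs in Fpr2f/f and 24140 to 41772 in Fpr2VKO, and the part of depth in these calls was not tested. No member was called there without Fpr2f/f replicate 2, Fpr2VKO replicate 1 or Fpr2VKO replicate 3, 1 was without Fpr2f/f replicate 3 or Fpr2VKO replicate 2, and 9 were without Fpr2f/f replicate 1, where 8 to 64 genes were called in these fits. The 2 calls were also lost with library totals and with a mitochondrial limit of 40%. At 2000 to under 10000 UMIs Peak1 was at 18759, 13289 and 12658, and 11795, 4037 and 6452, still without overlap.

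In goblet-marker cells, Peak1 was at 9431, 8200 and 10189 CPM in Fpr2f/f and 6572, 4996 and 5143 in Fpr2VKO (log2 change -0.79, SE 0.12, adjusted p = 0.00174). Cdk8 was at 369, 406 and 518, and 292, 264 and 313 (-0.64, SE 0.12, adjusted p = 0.0103). These 2 of 10 members passed where 0.221% of 10408 genes did. Without Fpr2f/f replicate 1, 8 members were called among 121 of 11038 genes, without Fpr2f/f replicate 3 1, and 2 or 3 without any other library, among 13 to 70 genes in these fits. Both calls were lost with a mitochondrial limit of 40% and with a fixed minimum of 2000 UMIs. At 2000 to under 10000 UMIs the values of Peak1 overlapped (18803 to 22529 against 10961 to 19520) and those of Cdk8 did not (709 to 734 against 452 to 626).

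In tuft-marker cells, Peak1 was at 50879, 51352 and 42956 CPM in Fpr2f/f and 30550, 33780 and 24939 in Fpr2VKO (log2 change -0.76, SE 0.14, adjusted p = 0.00802). Il31ra (-1.22, SE 0.25, adjusted p = 0.0216), Cmss1 (-0.87, SE 0.18, adjusted p = 0.0217) and Cdk8 (-0.91, SE 0.20, adjusted p = 0.0424) passed too. Gphn, at 2336, 2374 and 2592, and 1010, 1356 and 1247, had a log2 change of -1.08, and Gm48099, at 73.0, 82.7 and 65.9, and 20.2, 31.7 and 7.68, one of -1.97. The last 2 were chosen with this contrast in view and Peak1, Il31ra and Cdk8 with a genotype difference in these libraries, so nothing is read from these counts, beside 0.15% of 4660 genes called.

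Only 38 to 79 tuft-marker cells per library lay behind these values. No member was called in them without Fpr2f/f replicate 2 or without Fpr2f/f replicate 3, 4 were without Fpr2f/f replicate 1, 2 without Fpr2VKO replicate 1, 7 without Fpr2VKO replicate 2 and 1 without Fpr2VKO replicate 3, among 1 to 9 genes. All 6 calls were lost with a mitochondrial limit of 40%, and 2 were left with a fixed minimum of 2000 UMIs. At 2000 to under 10000 UMIs 3 of 10 members, Gphn, Gm48099 and Lars2, had groups that did not overlap. The share of all genes with every Fpr2VKO library lower was not counted at this depth, and was 3.65% over all depths of this class. At this depth the members' summed share was 15.6% to 19.7% in Fpr2f/f against 9.62% to 16.2% in Fpr2VKO. Over all depths the median UMI total of tuft-marker cells was 2157.5 to 3188 in Fpr2f/f and 1886 to 4309 in Fpr2VKO and overlapped between the groups.

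In the other epithelial and no-marker classes no member passed in the main edgeR fit, with all 6 libraries and the filter on low counts. The shares of genes called were 0.018% of 11098 in stem-marker cells, 0.0446% of 11217 in TA cells, 0.0283% of 10594 in enterocytes, 0.0214% of 9348 in enteroendocrine cells, where Gm48099 was filtered out, and 0.015% of 13339 in cells with no marker. The members' median log2 changes were -1.31, -0.73, -0.84, -0.48 and -0.80 in these classes, and those of all genes lay between -0.01 and 0.00. At an unadjusted p under 0.05 the members passing numbered 7, 1, 10, 4 and 2, where 8.58%, 4.48%, 7.65%, 3.79% and 6.06% of all genes passed. Stem-marker cells had a median of 6499 to 19321 UMIs in the Fpr2f/f libraries against 18292 to 30983 in the Fpr2VKO libraries, and enterocytes 3682 to 5317.5 against 11140 to 22468.5. At 2000 to under 10000 UMIs the members' summed share overlapped between the groups in both classes. Without Fpr2f/f replicate 1, 9 members were called in stem-marker cells among 48 of 11402 genes and 8 in TA cells among 116 of 11774. With no filter on low counts 5 were called in stem-marker cells among 147 of 22795 genes and 7 in enterocytes among 99 of 22984. With the replicate number as a block, 1 was called in stem-marker cells among 42 of 11098 genes and 7 in enterocytes among 71 of 10594. A mitochondrial limit of 40% gave 1 in stem-marker cells among 8 of 11633 genes. With DESeq2, 5 were called in enterocytes among 24 of 22984 genes and 1 in stem-marker cells among 39 of 22795. It also called 1 in cells with no marker among 12 of 26707 genes, and none in TA or enteroendocrine cells.

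Immune-marker cells, 23 to 87 per library, gave no call among the 9 members tested, with log2 changes of -0.43 (Camk1d) to -1.44 (Il31ra), each with an adjusted p of 0.994, and 0.262% of 5353 genes called. None had an unadjusted p under 0.05, as 4.76% of genes did, and DESeq2 called none. Peak1 was at 1745, 3264 and 10391 CPM in Fpr2f/f and 3575, 3482 and 1188 in Fpr2VKO, so that Fpr2f/f replicate 3 stood far above the rest. Without it, the log2 changes of Peak1, Cdk8, Camk1d and Gm26917 were above 0.

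Cells with no marker are the class in which the members were first seen to lead a cluster. Peak1 was at 18691, 44166 and 22299 CPM in Fpr2f/f and 21963, 14520 and 13552 in Fpr2VKO there, a log2 change of -0.82 (SE 0.44, adjusted p = 0.825), with the groups overlapping and Fpr2f/f replicate 2 far above the rest. Gm48099, at 33.1, 77.9 and 37.0, and 16.2, 15.7 and 16.9, did not overlap (-1.67, SE 0.38, adjusted p = 0.763). In stem-marker cells Gm48099 was at 10.8, 22.9 and 16.5, and 5.52, 5.10 and 7.66 (-1.51, SE 0.29, adjusted p = 0.0641).

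In all 158 fits of a member in a sum or class or of its interaction the log2 change was negative, and it stayed so in the corresponding fits with library totals and with DESeq2 (150 values). Since the sums share cells and libraries and some of these values were known when the members were chosen, this count is a description.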

How the data were processed

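The authors deposited raw counts of UMIs per gene and barcode (10x-style matrices of 32285 genes and 2359296 listed barcodes, with no cell calling) made from MobiNova-100 libraries with MobiVision 2.1 on mm10. The processing notes also name Seurat 4.0 and 4.0.0. The annotation version, the counting of introns and of strand, and the thresholds used to remove cells are not given in the sources used here, and the authors' cell calls and clusters were not used. UMIs were summed per library with Python 3.11.15, NumPy 2.4.6, pandas 2.3.3 and SciPy 1.17.1 over all barcodes and over bins split at 100, 1000 and 10000 UMIs. Kept cells lay above the steepest fall of the curve of ranked UMI totals and had at least 1000 UMIs, at least 500 genes and at most 20% mitochondrial UMIs, and no doublet caller was run. They were fewer than the study's own cells. A cell was put in a marker class with at least 3 marker UMIs, at least 3 times (offset 0.5) the number expected from the library's barcodes under 100 UMIs and a Poisson p under 0.0001, and was set aside as mixed where a second class reached 0.5 of the first. Classes with at least 20 cells in every library were fitted.

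Sums were tested with edgeR 4.0.16 (quasi-likelihood, TMM, filterByExpr, R 4.3.3), the library being the replicate, and with DESeq2 1.42.0 as an alternative. p-values measure the spread between these libraries. Differences between depth bins used an offset of 1 CPM for the ranks, the values over all genes and the other genes named. The values printed for the members used no offset. Other genes named were those overlapping a member, the 5 with the closest profile over 24 sums, and those of listed groups. Members and lists were chosen with earlier results of these data known. Coordinates are from GENCODE for GRCm38, whose names were matched by gene ID. Some genes of these lists are not reported here.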

Additional observations from a re-analysis of the deposited data

How the results depend on the processing

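Of 1924 alternative fits of the 158 member changes, 1918 had the same direction, 80 lost and 152 gained an adjusted p under 0.05. At 10000 or more UMIs, where neither was called, the log2 change of Camk1d was -0.46 to 0.054 and that of Gm26917 -0.71 to 0.035 over the fits that left out 1 library, above 0 without Fpr2f/f replicate 3 and without Fpr2f/f replicate 2, respectively. In immune-marker cells, with none called, such fits gave -0.746 to 0.367 (log2 change of Camk1d, immune class), -1.15 to 0.033 (log2 change of Cdk8, immune class), -1.30 to 0.123 (log2 change of Peak1, immune class) and -1.015 to 0.29 (log2 change of Gm26917, immune class), each above 0 without Fpr2f/f replicate 3. The cause was not tested.

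The number of members called moved as follows. With DESeq2 it was 6 over all barcodes in place of 1, 7 under 100 UMIs in place of 0, 5 at 1000 to under 10000 UMIs in place of 1, 3 in kept cells in place of 0 and 19 over the 9 marker classes in place of 10 (counts that include Gphn and Gm48099 in tuft-marker cells). In the same order, all genes called with DESeq2 numbered 124 of 30345, 141 of 28432, 86 of 29549 and 98 of 28699. The classes had 2 to 51 genes called of 16716 to 26707 each. With no filter on low counts the members called numbered 2, 5, 5, 0 and 36. All genes called were then 77 of 30345, 478 of 28432, 228 of 29549 and 88 of 28699, and 13 to 147 per class. With library totals in place of TMM, 2 members were called under 100 UMIs among 21 of 15226 genes. For the interaction 1 was called among 477 of 21848, and over the classes 6, with 1 to 37 genes called per class. A mitochondrial limit of 40% gave 1 member in kept cells among 6 of 19487 genes. Over the classes it gave 1, with 1 to 15 genes called per class. A fixed minimum of 2000 UMIs gave 3 over the classes, with 1 to 28 genes called per class. In barcodes of 200 to under 1000 UMIs alone 5 members were called in place of 9, among 223 of 17157 genes. Leaving out 1 library at a time gave 1 to 2 members over all barcodes, among 3 to 127 genes. At 100 to under 1000 UMIs it gave 5 to 9 (848 to 4620 genes) and at 1000 to under 10000 UMIs 1 to 5 (3 to 24 genes). It gave 0 to 6 in kept cells (1 to 42 genes) and 0 to 2 for the interaction (3 to 4385 genes). Over the classes 3 to 39 members were called, the lowest number without the second and the highest without the first Fpr2f/f library. Genes called per class were 1 to 121 in these fits.

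All genes called numbered 18 over all barcodes (3 to 127 over the alternatives), 3 under 100 UMIs (2 to 714), 3987 at 100 to under 1000 (223 to 5889), 3 at 1000 to under 10000 (3 to 228), 2 at 10000 or more (1 to 35), 3 in kept cells (1 to 98) and 349 for the interaction (3 to 4385). At 100 to under 1000 UMIs, 1407 were higher and 2580 lower in Fpr2VKO, with library totals 163 and 3887, with DESeq2 2494 and 1272, and with no filter 2906 and 2112. Over all barcodes 11 were higher and 7 lower, and 4 and 8 with library totals. Library totals moved the median log2 change of all genes from -0.04 to -0.18 at 100 to under 1000 UMIs and from 0.01 to -0.11 under 100 UMIs.

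Whether the replicate numbers shared by the groups pair the libraries could not be decided. Deviations from the group mean correlated at -0.121, 0.0946 and 0.298 over all barcodes in same-numbered libraries, and at -0.264 to 0.159 in the others. Such deviations cancel out within a group, which holds the average over all pairs of libraries near 0, but not that of same-numbered ones. Of the same-numbered values, that of replicates 1 was below 0 and that of replicates 3 was the highest of all. With the replicate block 9 members were called under 100 UMIs among 714 of 15226 genes. There were 5 at 1000 to under 10000 UMIs among 102 of 18877 and 10 at 100 to under 1000 UMIs among 5889 of 19854. Over the classes 20 were called, with 1 to 126 genes called per class.

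Of the described log2 ratios of the summed members, 1000 to under 10000 over 10000 or more UMIs was 1.14 in place of 1.73 with limits of 50, 500 and 5000 UMIs, and no marker over stem markers 0.67 in place of 1.57 at 2000 to under 10000 UMIs. Gm48099 had 2 to 43 UMIs in the tuft-marker cells of a library, which limits its precision there.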
